A study of Homo sapiens with 4 samples.

Results

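The 7 genes CHGA, CHGB, SYP, ENO2, NCAM1, SNAP25 and SRRM4 mark the neuroendocrine and neuronal state that some prostate cancers acquire. Peaks of methylated DNA were taken that overlapped each gene with about 5 kb on each side, as spans rounded to 1 kb in hg19. These spans held 17 of 296521 peaks in the PKCλ/ι knockout list and 21 of 261657 peaks in the control list. The rule uses the genes' names and positions and no peak value, but the set was drawn up with earlier results of these data known.

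The peaks came from MeDIP-seq, the sequencing of immunoprecipitated methylated DNA, with an antibody against 5-methylcytosine. Both lists came from C42B, a human prostate cancer cell line, grown without treatment and harvested about 48 h after plating at roughly 70% confluency. The knockout cells carried the guide RNA sgPKCl/i, directed against the atypical kinase PKCλ/ι, and the control cells carried the guide sgC and are labelled WT. Each genotype had 1 immunoprecipitated and 1 input library, so no difference between genotypes below has a replicate check and none was tested. Whether either population was 1 clone is not stated in the labels. The series concerns PKCλ/ι loss, serine and one-carbon metabolism and neuroendocrine prostate cancer. Peaks measure DNA methylation and not expression, so these lists cannot show whether the genes are transcribed in these cells.

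Neuroendocrine cells store peptides in dense-core granules and release them by regulated exocytosis, with much of the same vesicle machinery that neurons use. Chromogranins A and B (CHGA, CHGB) are acidic proteins of the granule matrix, synaptophysin (SYP) is a membrane protein of small vesicles, and SNAP25 is a plasma membrane SNARE protein that drives vesicle fusion. Neuron-specific enolase (ENO2) is a glycolytic enzyme, NCAM1 (CD56) is a neural cell adhesion molecule, and SRRM4 is a splicing factor that promotes inclusion of neural microexons. Pathologists use several of these proteins to recognise neuroendocrine prostate cancer. In MeDIP, DNA is enriched when it carries several methylated CG dinucleotides close together. A stretch without a peak may therefore be unmethylated, or methylated but poor in CG.

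The promoters of these genes are shown because the peaks are read against the gene starts below and because CG content sets what MeDIP can detect there. Promoter windows of 300 bases, from 250 before to 50 after the start, were matched by symbol for 4 of the 7 genes in RefSeq's table of build GRCh38.p14. CG dinucleotides are in capitals. The windows are CHGA at chr14:92922900-92923199 on the plus strand, SYP at chrX:49200144-49200443 on the minus strand, ENO2 at chr12:6914330-6914629 on the plus strand and SRRM4 at chr12:118981291-118981590 on the plus strand.
CHGA: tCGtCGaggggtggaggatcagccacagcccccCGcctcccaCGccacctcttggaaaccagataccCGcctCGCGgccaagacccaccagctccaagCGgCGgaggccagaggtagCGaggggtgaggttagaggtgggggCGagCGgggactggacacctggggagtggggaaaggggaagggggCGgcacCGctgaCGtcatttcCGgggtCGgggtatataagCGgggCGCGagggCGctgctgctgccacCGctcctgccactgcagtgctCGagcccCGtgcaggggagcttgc
SYP: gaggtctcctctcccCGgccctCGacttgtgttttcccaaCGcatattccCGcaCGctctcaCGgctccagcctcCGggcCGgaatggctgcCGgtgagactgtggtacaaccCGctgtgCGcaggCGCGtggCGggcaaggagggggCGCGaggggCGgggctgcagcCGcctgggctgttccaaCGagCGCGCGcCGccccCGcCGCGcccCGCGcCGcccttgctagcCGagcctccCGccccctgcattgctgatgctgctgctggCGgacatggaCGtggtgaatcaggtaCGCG
ENO2: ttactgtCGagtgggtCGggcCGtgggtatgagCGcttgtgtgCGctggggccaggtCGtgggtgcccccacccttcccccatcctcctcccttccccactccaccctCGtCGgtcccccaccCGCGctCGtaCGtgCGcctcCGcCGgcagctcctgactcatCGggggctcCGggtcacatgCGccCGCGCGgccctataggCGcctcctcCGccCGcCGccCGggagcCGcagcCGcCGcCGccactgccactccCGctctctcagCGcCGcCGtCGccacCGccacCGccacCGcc
SRRM4: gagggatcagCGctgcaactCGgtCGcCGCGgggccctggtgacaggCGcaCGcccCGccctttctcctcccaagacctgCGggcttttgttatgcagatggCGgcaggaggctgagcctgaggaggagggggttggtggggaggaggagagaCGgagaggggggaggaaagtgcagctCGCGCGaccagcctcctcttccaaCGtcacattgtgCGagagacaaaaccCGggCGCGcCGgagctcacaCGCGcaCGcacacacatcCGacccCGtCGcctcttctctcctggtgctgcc

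All 4 windows were rich in CG. The window of ENO2 held 38 CG dinucleotides, that of SYP 35, that of SRRM4 26 and that of CHGA 24, against a median of 14 over 35114 windows in the table. Windows with at least as many made up 9.90%, 14.1%, 30.1% and 33.9% of the table, in the same order of genes. The ratio of observed to expected CG was 0.96 for ENO2, 0.92 for SYP, 0.78 for SRRM4 and 0.68 for CHGA, with a median of 0.58 over the table. A list of 30 other secretory and neuronal genes had windows for 23, with a median of 18 CG dinucleotides and a range of 2 to 51. The cAMP response element, searched as TGACGTCA, which reads the same on both strands, was found in 1.85% of all windows and in 2 of the 23 windows of the other secretory and neuronal genes (8.70%). Among the 4 genes it was present in that of CHGA, at bases 197 to 204 counted from the 5′ end of the printed sequence.

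**Figure D1:**
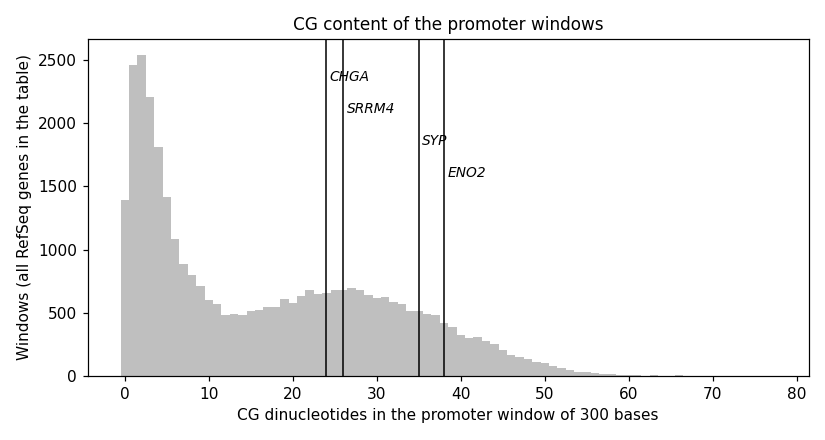
Number of RefSeq promoter windows of 300 bases (vertical axis) by their count of CG dinucleotides (horizontal axis), with the windows of 4 genes marked by lines. All 4 lines lie to the right of the median of 14, from 24 for CHGA to 38 for ENO2.

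The knockout immunoprecipitate was the deeper one. The lowest local background of a list is the genome-wide mean pileup in the caller's model, and it was 4.42 overlapping fragments in the knockout and 2.92 in the control, a ratio of 1.51. Pileups, the number of fragments over a peak's summit, are therefore also given as multiples of this mean. The fold enrichment and the −log10 q of each peak are the authors' own values, and peaks with −log10 q of at least 10 are called strong here. Intervals are exact 95% intervals and cover counting error only. Median pileup over a whole list was 8.14 times the mean in the knockout and 8.55 times in the control.

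Methylated regions were unevenly spread over the 7 spans, which covered 708 kb together. The knockout had 17 peaks (9.90 to 27.2), or 24.0 per Mb, against 95.8 per Mb over its whole list. The control had 21 peaks (13.0 to 32.1), or 29.7 per Mb, against 84.6 per Mb over its list. Most of the peaks lay in a small part of the length. The spans of CHGA, SYP and ENO2, 66 kb together, held 12 of the 17 knockout peaks (182 per Mb) and 16 of the 21 control peaks (242 per Mb), denser than either whole list. The spans of NCAM1, SNAP25 and SRRM4, 618 kb together, held 5 peaks in each list (8.09 per Mb), and that of CHGB held none. The grouping into CHGA, SYP and ENO2 on 1 side and NCAM1, SNAP25 and SRRM4 on the other was made after the counts were seen. The 5 kb flanks of these 3 genes reach into neighbouring genes, so part of this density may belong to the neighbours. Without the 5 kb flanks, CHGA kept 3 peaks in each list, SYP 1 in the knockout and 2 in the control, and ENO2 2 and 3. With flanks, peaks covered 14.7% of the spans of CHGA, SYP and ENO2 in the knockout and 13.7% in the control. They covered 0.406% and 0.336% of the spans of NCAM1, SNAP25 and SRRM4. Over all chromosomes the lists covered 5.72% in the knockout and 4.87% in the control.

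Merging both lists gave 22 separate regions in the 7 spans. Of these, 15 were found in both genotypes, 2 in the knockout only and 5 in the control only. By peaks, 2 of 17 knockout peaks (11.8%, 1.46 to 36.4) overlapped no control peak, against 23.9% over the whole knockout list. In the control, 5 of 21 peaks (23.8%, 8.22 to 47.2) overlapped no knockout peak, against 12.1% over the whole control list. Both whole-list shares lie inside the intervals of the gene spans. These intervals treat neighbouring peaks of 1 library as independent, and no difference from the whole lists was tested.

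**Figure D2:**
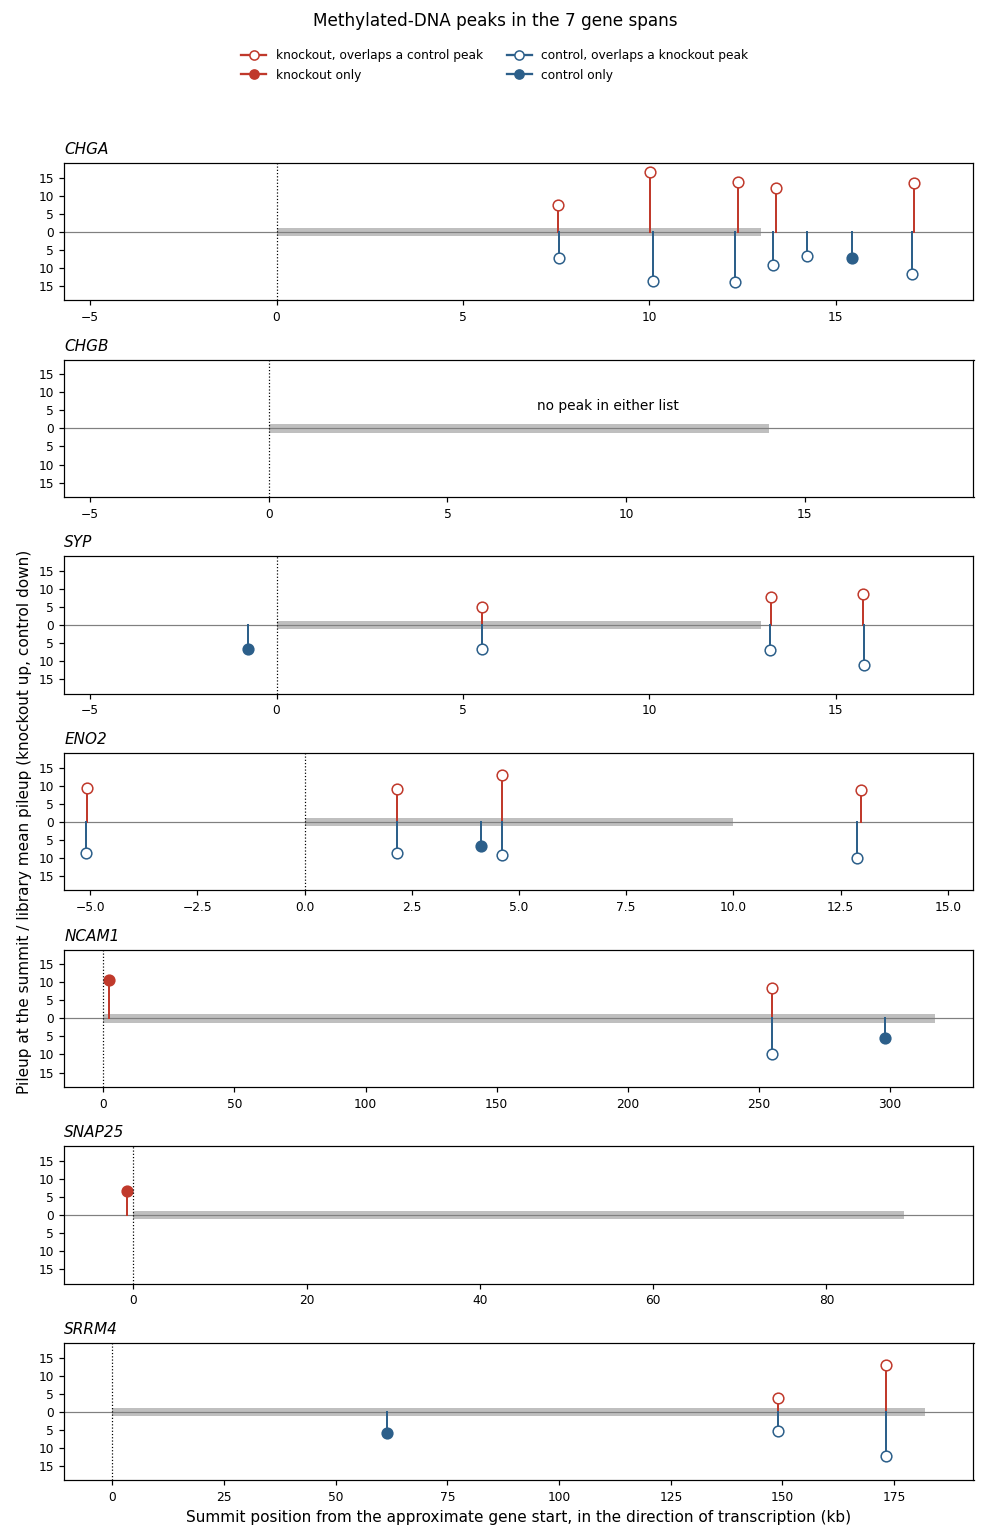
Peaks in each gene span by the distance of the summit from the approximate gene start in kb (horizontal axis) and the pileup as a multiple of the library mean (vertical axis, knockout upward and control downward). Grey bars are approximate gene bodies, and filled circles are peaks found in 1 list only: 2 in the knockout, beside the starts of NCAM1 and SNAP25, and 5 in the control.

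The granule gene CHGA had the most peaks with its flanks counted, and all of them lay in its distal part or beyond its end. Its span on chromosome 14, from 93384000 to 93407000, held 5 knockout peaks and 7 control peaks. No peak of either list lay in the first 12.3 kb of the span, which include the gene start near 93389000. The first peak began at 93396268 in the knockout and at 93396487 in the control. The strongest CHGA peak in the knockout ran from 93397910 to 93399688, where the pileup was 73 (57.2 to 91.8), 16.5 times the mean, and a fold of 7.19. The control peak there ran from 93398306 to 93399654, where the pileup was 40 (28.6 to 54.5), 13.7 times the mean, and a fold of 4.30. At 1779 bp the knockout peak was also the longest of all peaks in the 7 spans, and 2.20% of knockout peaks were at least as long. The highest control pileup at CHGA was 41 (29.4 to 55.6), in the next region at 93400947 to 93401571, where the knockout pileup was 61 (46.7 to 78.4).

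Further along, the CHGA regions differed in how they were divided. The knockout peak at 93402049 to 93403435 had a pileup of 54 and overlapped 2 control peaks, with pileups of 27 and 20. The control peak at 93404233 to 93404613, with a pileup of 21 (13.0 to 32.1), overlapped no knockout peak, the nearest being 723 bp away. The last region gave pileups of 60 in the knockout and 34 in the control. These distal peaks lay in the flank after the gene. RefSeq places ITPK1, the next protein-coding gene, 1.63 kb after CHGA in GRCh38, so the flank of about 5 kb reaches into ITPK1. The CHGA peaks stood on a raised local background, from 1.92 to 3.19 times the lowest in the knockout and from 1.42 to 2.92 times in the control. The median over a whole list was 1.24 in the knockout and 1.14 in the control.

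The other chromogranin gene, CHGB, had no peak in either genotype. Its span on chromosome 20 runs from 5887000 to 5911000. The peaks nearest to its start in the knockout lay 30.1 kb before it, with a pileup of 28, and 25.4 kb after it, with a pileup of 30. In the control they lay 30.0 kb before it, with a pileup of 20, and 25.4 kb after it, with a pileup of 26. The stretch without a peak was 55.6 kb in the knockout and 55.4 kb in the control. Gaps between neighbouring peaks were at least that long in 2.58% of cases in the knockout and 2.94% in the control. The median gap was 2.02 kb and 2.22 kb. Such shares count gaps and not their length, and a gap around a chosen position is more likely to be a long one. They therefore understate how much of the genome lies in gaps of this length.

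The vesicle gene SYP had 3 regions in both genotypes and another, beside its start, in the control only. SYP lies on the minus strand of chromosome X, and its span is 49039000 to 49062000. The control-only peak ran from 49057534 to 49057990 with its summit about 0.775 kb before the approximate start. Its pileup was 19 (11.4 to 29.7), 6.50 times the mean, its fold 5.10 and its −log10 q 8.50. The nearest knockout peak was 5.96 kb away. At the knockout's depth the same enrichment on the same relative background would give a pileup of 28.8. The lowest pileup listed in the knockout on a background at least that high was 14. The knockout's own background at this site is not known, and why it had no peak here was not tested. Inside the gene, 5.52 kb after the start, the knockout had a pileup of 22 and the control one of 19. RefSeq places PRICKLE3 1.44 kb beyond the end of SYP in GRCh38, so the flank of about 5 kb reaches into that gene. The strongest peak of the SYP span lay in this flank and may belong to PRICKLE3. It had a pileup of 38 (26.9 to 52.2) and a fold of 7.19 in the knockout. In the control it had a pileup of 32 (21.9 to 45.2) and a fold of 8.41. Here the knockout peak was 1662 bp long and the control peak 827 bp.

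The SNARE gene SNAP25 had 1 peak, in the knockout only, in the flank just before its approximate start. Without the flanks no peak was left at this gene. The peak ran from 10198077 to 10198550 on chromosome 20, in a span of 10194000 to 10293000. Its summit lay about 0.715 kb before the approximate start, with a pileup of 29 (19.4 to 41.6), 6.56 times the mean. Its fold was 5.53, close to the knockout list's median of 5.35, its −log10 q was 13.2, and its local background was the lowest of the list. The control list had no peak in the span, and its nearest peak was 167 kb away. At the control's depth the same enrichment on the same relative background would give a pileup of 19.2. The lowest pileup listed in the control on a background at least that high was 10. The control's own background at this site is not known, and why it had no peak here was not tested. The control stretch without a peak around the start was 345 kb long, and 0.370% of control gaps were at least that long. As at CHGB, this share does not allow for the length of the gaps.

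The enolase gene ENO2 had 4 knockout peaks and 5 control peaks in the shortest span, 7018000 to 7038000 on chromosome 12. In GRCh38, RefSeq places LRRC23 0.351 kb before it and ATN1 0.762 kb after it as the nearest protein-coding genes. Its flanks of about 5 kb therefore reach into both, and peaks in the flanks may belong to them. The strongest knockout peak, at 7027383 to 7027866 and 4.61 kb after the approximate start, had a pileup of 57 (43.2 to 73.9), 12.9 times the mean, and a fold of 8.60. The control peak there had a pileup of 27 (17.8 to 39.3), 9.24 times the mean, and a fold of 6.25. Beside it, at 7026845 to 7027177, the control had a peak with a pileup of 20 (12.2 to 30.9) that overlapped no knockout peak, 205 bp from the nearest one. The strongest control peak, at 7035658 to 7036441 in the flank after the gene, had a pileup of 29, where the knockout had 39. At 2.16 kb after the start the pileups were 40 in the knockout and 25 in the control, and at the outer edge of the flank before the gene they were 41 and 25, in the same order.

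The span of the adhesion gene NCAM1, flanks included, covered 327 kb of chromosome 11, from 112827000 to 113154000, and held 2 peaks in each list. They shared 1 region, 255 kb into the gene, with pileups of 37 (26.1 to 51.0) in the knockout and 29 (19.4 to 41.6) in the control. The other knockout peak ran from 112833850 to 112834454, with its edge 1.85 kb and its summit 2.12 kb after the approximate start. It had a pileup of 47 (34.5 to 62.5), 10.6 times the mean, a fold of 5.07 and a −log10 q of 18.2. Its local background was 1.92 times the lowest, so that it had a higher pileup but a lower fold than the NCAM1 region shared by both lists, which had a fold of 7.01. No control peak lay within 252 kb. At the control's depth the same enrichment on the same relative background would give a pileup of 31.1. The lowest pileup listed in the control on a background at least that high was 15. The control's own background at this site is not known, and why it had no peak here was not tested. The other control peak lay 298 kb into the gene, with a pileup of 16 (9.15 to 26.0) and a −log10 q of 5.59, and was found in the control only. At 656 kb, the control stretch without a peak around the NCAM1 start was matched or exceeded by 335 of 261626 control gaps. That count does not allow for the length of the gaps either.

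The splicing gene SRRM4 had its strongest region near its end. Its span on chromosome 12 runs from 119414000 to 119606000, and the knockout held 2 peaks and the control 3. The knockout peak at 119591637 to 119592387, 173 kb after the start, had a pileup of 57 (43.2 to 73.9), 12.9 times the mean. Its fold of 10.2 and its −log10 q of 38.7 were the highest of all peaks in the 7 spans, and 6.09% of knockout peaks had at least that fold. The control peak there had a pileup of 36 (25.2 to 49.8), 12.3 times the mean, and a fold of 8.53. A weaker region 149 kb after the start had pileups of 17 (9.90 to 27.2) in the knockout and 16 (9.15 to 26.0) in the control. The third control peak, at 119480422 to 119480721, had a pileup of 17 (9.90 to 27.2) and a −log10 q of 6.95 and overlapped no knockout peak.

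The gene starts were mostly free of peaks. In a window of 2 kb on each side of the approximate start, 2 of the 7 genes, NCAM1 and SNAP25, had a knockout peak. SYP alone had a control peak. CHGA, CHGB, ENO2 and SRRM4 had no peak of either list in this window. No share over other gene starts was available, since the annotation used was of another build. The whole lists held 95.8 peaks per Mb in the knockout and 84.6 in the control, so windows this short often hold none. The starts are known only to about 1 kb, and 2 genes lay at the window's limit. The NCAM1 peak overlapped it by its edge, which was 1.85 kb from the start. The ENO2 region found in both genotypes began 2.04 kb after the start in the knockout and 2.05 kb after it in the control, just outside. Within 1 kb of the start the counts were 1 knockout peak, at SNAP25, and 1 control peak, at SYP.

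Strong peaks numbered 14 of 17 in the knockout (82.4%) and 10 of 21 in the control (47.6%), against 74.5% and 57.0% over the whole lists. Both knockout-only peaks were strong and none of the 5 control-only peaks was, and over the whole lists 46.2% of knockout-only and 15.3% of control-only peaks were strong. Of the 14 strong knockout peaks 2 overlapped no control peak, against 14.9% over the whole knockout list. Of the 10 strong control peaks none did so with the knockout, against 3.24% over the whole control list. The 5 control-only peaks had pileups of 16 to 21 and −log10 q values of 5.59 to 8.50. With knockout pileups and backgrounds divided by 1.51, the knockout-only peaks had −log10 q values of 11.8 at NCAM1 and 8.50 at SNAP25. On that scale the SNAP25 peak was level with the strongest control-only peak, at SYP. Other strong knockout peaks also fell below 10 on it. They were at CHGA from 93402049 (9.34), SYP from 49043499 (9.01) and ENO2 from 7025041 (8.41). The −log10 q depends on depth, so the numbers of strong peaks in the 2 lists are not directly comparable.

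**Figure D3:**
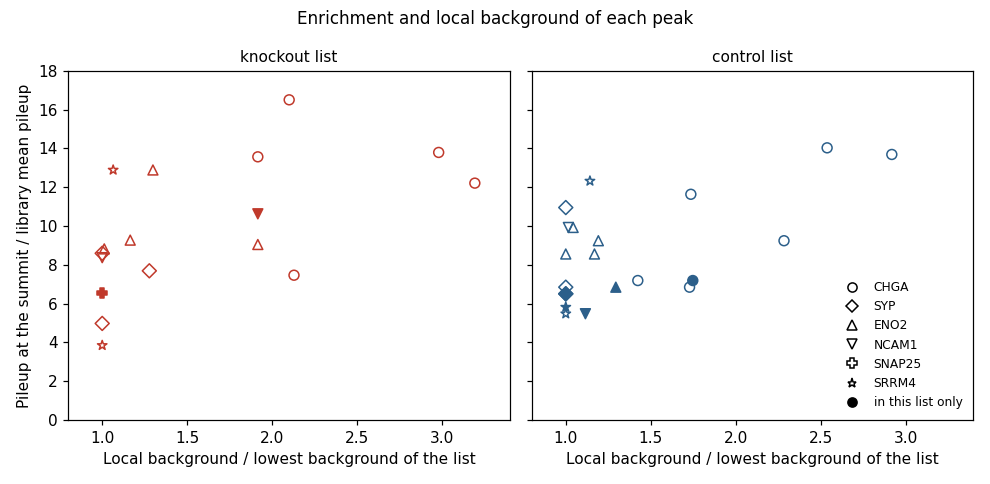
Pileup as a multiple of the library mean (vertical axis) against local background as a multiple of the list's lowest (horizontal axis), 1 point per peak, for 17 knockout peaks on the left and 21 control peaks on the right. CHGA peaks lie furthest to the right in both lists, and the knockout-only NCAM1 peak lies at 1.92.

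Where a region was found in both genotypes, the pileup ratios lay near those of all pairs of the lists. Such pairs leave out regions listed in 1 genotype only. There were 14 pairs of peaks that matched each other and nothing else. The log2 ratio of knockout to control pileup, scaled by depth, had a median of 0.06, with quartiles of -0.23 and 0.15. With the authors' folds in place of pileups the median over the 14 pairs was -0.07. Over all 206556 pairs of the lists the median was 0.04, with quartiles of -0.18 and 0.26. The ratio was above 0 in 8 of the 14 pairs (57.1%), against 54.6% of all pairs. None of the 14 differed by over 2-fold, against 0.445% of all pairs that were over 2-fold higher in the knockout and 0.14% that were over 2-fold lower.

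The highest ratio among the 14 was at ENO2, 4.61 kb after the start, at 0.48 (-0.20 to 1.20). The lowest was at SRRM4, 149 kb after the start, at -0.51 (-1.58 to 0.57). All 14 intervals included 0, so no pair differed beyond counting error. The intervals were wide, so equal enrichment is not shown. Those of these ENO2 and SRRM4 pairs and of all 3 SYP pairs also included a 2-fold difference. By gene, the 4 CHGA pairs ran from -0.02 to 0.27 and the 4 ENO2 pairs from -0.17 to 0.48. The 3 SYP pairs ran from -0.39 to 0.17, on a chromosome where the median of 3541 pairs was -0.05. The strongest CHGA region had a ratio of 0.27 (-0.31 to 0.86), while its local background, on the same scale, was lower in the knockout by a log2 ratio of -0.47. Its ratio of the authors' folds was accordingly larger, at 0.74.

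**Figure D4:**
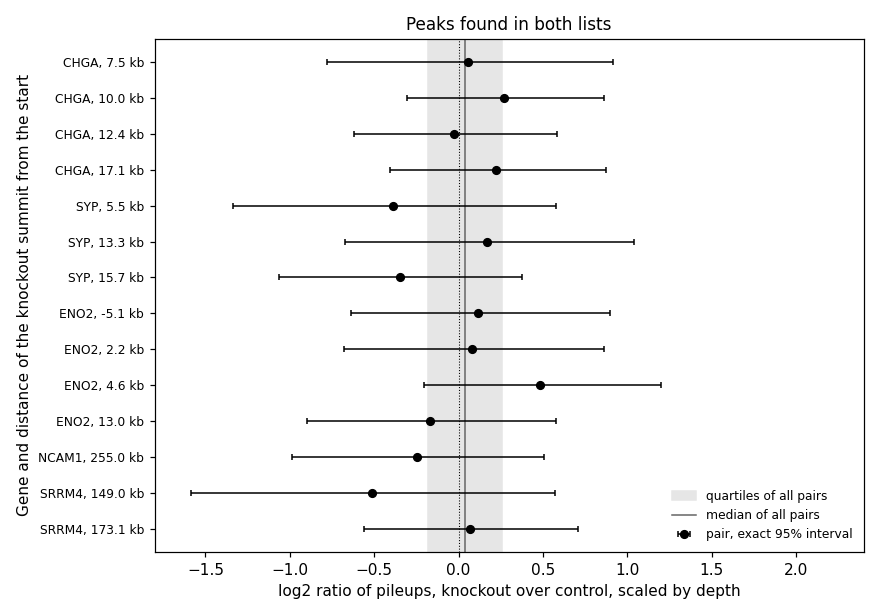
The log2 ratio of knockout to control pileup, scaled by depth (horizontal axis), for 14 pairs of overlapping peaks, with exact 95% intervals for counting error. Every interval includes 0, and the points scatter around the median of all pairs, 0.04, whose quartiles are shaded.

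The surroundings of the genes were as uneven as the spans. In the 500 kb on each side of the ENO2 span there were 269 knockout and 258 control peaks, and around CHGA 264 and 234. Around SYP there were 181 and 163, although chromosome X as a whole had 37.8 peaks per Mb in the knockout and 29.8 in the control. Around CHGB there were 91 knockout and 69 control peaks, around SNAP25 59 and 46, around NCAM1 28 and 19, and around SRRM4 9 and 5. Among 2873 windows of 1 Mb, the one holding SRRM4 had 11 knockout and 8 control peaks, and 14.3% of windows in the knockout and 14.7% in the control had no more. The window holding CHGA had 253 knockout and 226 control peaks, more than or as many as 89.9% and 89.7% of windows. SRRM4 was the 1 gene whose span was denser than its surroundings in both lists, with 10.4 knockout and 15.6 control peaks per Mb. These densities rest on 2 and 3 peaks, and 1 of the 2 knockout peaks had a −log10 q of 4.64. At a −log10 q of at least 5, 1 knockout peak was left in the span.

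**Figure D5:**
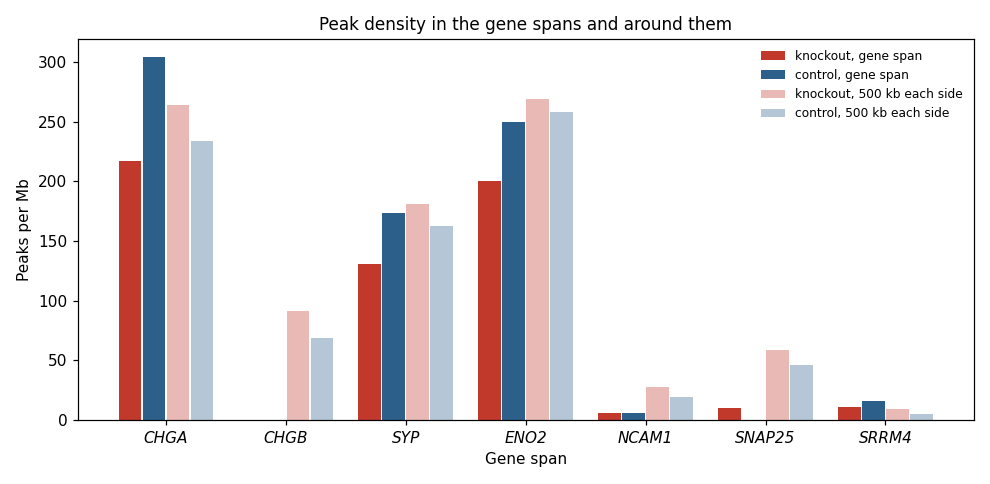
Peaks per Mb (vertical axis) in each gene span and in the 500 kb on each side of it, for the knockout and the control list. CHGA, SYP and ENO2 lie in dense surroundings of 163 to 269 peaks per Mb, and NCAM1 and SRRM4 in surroundings of 5 to 28.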

How the data were processed

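Immunoprecipitated and input DNA of C42B cells was sequenced for both genotypes, 4 libraries in all. The submitters' processing notes name FastQC, BWA, MACS2 and build hg19, with no versions or parameters. The deposited lists, 1 per genotype and matched to samples by name, give for each peak the pileup signal at the summit, unscaled between libraries, its −log10 p and −log10 q, and the authors' fold, a ratio to local background.

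Local background was recomputed as pileup plus 1, divided by the fold, minus 1. The listed −log10 p was recovered from it within 0.000573 as a Poisson tail. Library totals are not in the lists, so depth was taken from the lowest background. Sharing 1 bp counted as overlap. Gene starts were set 5 kb inside the span edge, on the strand known for each gene. By rule, each gene's strongest peak in each list, peaks within 2 kb of a start, strong list-only peaks and the pairs with extreme ratios were named, and other peaks were described after their values were seen. The genes and lists were chosen with earlier results of these data known. Overlap and ratio steps were tested on simulated data. Python 3.11.15, pandas 2.3.3 and scipy 1.17.1 were used. With 1 library per group no test was made.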

Additional observations from a re-analysis of the deposited data

How the results depend on the processing

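Over 7 summary results (peaks, list-only peaks and peaks near the start in each list, and the median ratio of pairs) 56 alternatives were run. Counts were held to within 1.5 times and the median to a 95% range of -0.35 to 0.22. That range was taken from the ranked ratios of the 14 pairs and treats them as independent. It reflects spread among pairs of 1 library per group, and served only as a tolerance. Of the 56, 41 kept to these limits, and 15 did not. Counts cannot change sign. The median log2 ratio was 0.06 from pileups and -0.07 from the authors' folds, both inside the range used as tolerance. All alternatives for peaks near the start were chosen after seeing the data. Without the 5 kb flanks the spans held 10 knockout and 13 control peaks, of which 1 and 3 were list-only, by construction. At −log10 q of at least 10, control peaks numbered 10, control-only peaks 0 and control peaks near the start 0, by construction. With at least 50% reciprocal overlap, 4 knockout and 8 control peaks were list-only. Requiring 1000 bp to the nearest knockout peak left 3 control-only peaks. Without NCAM1, 1 knockout-only peak and 1 knockout peak near a start were left. Windows of 1 kb gave 1 knockout peak near a start, and windows of 5 kb gave 5 knockout and 5 control peaks. Scaling the knockout to the control's depth kept all 17 knockout peaks and both knockout-only peaks. Over the whole list it kept 295822 of 296521 knockout peaks, so this step could hardly have removed any. The counts per gene moved by more than 1.5 times in 14 of 84 alternatives. Counts this small and 1 library per group limit every comparison. Peaks of the list of 30 other genes were not analysed, since the annotation used was of another build. No paired analysis was possible because a group had only 1 library.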
